A study of Mus musculus with 6 samples.

Results

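Genes of the mural cells, the contractile and supporting cells around blood vessels, were examined in hearts of mice with and without HFpEF. They were chosen by name, as 6 genes of the smooth muscle contractile apparatus (Acta2, Myh11, Cnn1, Tagln, Smtn and Lmod1) and 4 genes typical of pericytes (Rgs5, Pdgfrb, Cspg4 and Notch3), and make up 10 of the 54532 gene identifiers in the deposited table. RNA was sequenced from left ventricular myocardium of 3 chow-fed mice (Chow) and 3 HFpEF mice (heart failure with preserved ejection fraction), with 1 library per mouse. All were male C57BL/6 mice that entered the study at 6 to 8 weeks of age. For 12 weeks the HFpEF mice received a high-fat diet, with 60% of kcal from fat, together with 0.5 g/L of L-NAME, which blocks nitric oxide synthase, in their drinking water, and the Chow mice received standard chow and regular water. No genetic change is named for either group, and diet and L-NAME were always given together, so their effects cannot be told apart.

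Vascular smooth muscle cells wrap arteries and arterioles in sheets and set vessel tone. Their contractile genes are switched on together by serum response factor and its coactivator myocardin, and some of them are also used by myofibroblasts and by the walls of large vessels. Pericytes sit singly along capillaries, are recruited by PDGF-B released from the endothelium, and normally hold little contractile protein. In bulk tissue fewer cells of a type and less RNA per cell cannot be told apart.

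Levels are FPKM (fragments scaled to transcript length and to a size per library), which account for gene length and can be compared between genes. Total reads, computed from the FPKM and exon lengths over all genes, were 13075451 to 15572773 in Chow and 13459635 to 16024515 in HFpEF. Those of genes whose values came out as whole reads were 12459042 to 14911656 and 12781414 to 15278434. The library size implied by the FPKM was below the total reads in every Chow library and above them in every HFpEF library. In HFpEF replicate 3 it was 1.93e+07, against 15193420 total reads. Some libraries stood apart. HFpEF replicate 3 had 7.18% of its reads on mitochondrial genes, against 20.1% to 26.0% in the other 5. Summed FPKM of 4 atrial genes was 13.3, 16.2 and 538 in Chow replicates 1 to 3 and 2305, 3834 and 20.6 in HFpEF replicates 1 to 3, and the adipocyte genes Adipoq, Cidec, Cfd, Lep and Retn were at 0 in every Chow library. Ventricular cardiomyocyte genes were abundant in all 6 libraries (Myh6 at 1541 FPKM or more).

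In Chow hearts Rgs5, a regulator of G protein signalling, was the most abundant of the 10 genes, at 152 ± 11.4 FPKM (SD, n = 3). Acta2, which encodes smooth muscle alpha-actin, followed at 68.1 ± 13.1 and Smtn, encoding the actin-associated protein smoothelin, at 44.9 ± 3.10. The PDGF receptor gene Pdgfrb (20.8 ± 1.42), the receptor gene Notch3 (13.3 ± 0.709), the smooth muscle myosin heavy chain gene Myh11 (10.7 ± 1.47) and the proteoglycan gene Cspg4 (3.27 ± 0.0775) came next. Cnn1, encoding calponin, and Lmod1, encoding the actin nucleator leiomodin, had overlapping Chow values at 1.69 ± 0.671 and 1.61 ± 0.247, and were the only neighbours in this order whose libraries overlapped. Tagln, encoding transgelin, was lowest at 0.105 ± 0.0618. Both sets of genes were thus measured in every Chow library, with Tagln close to the detection limit.

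**Figure D1:**
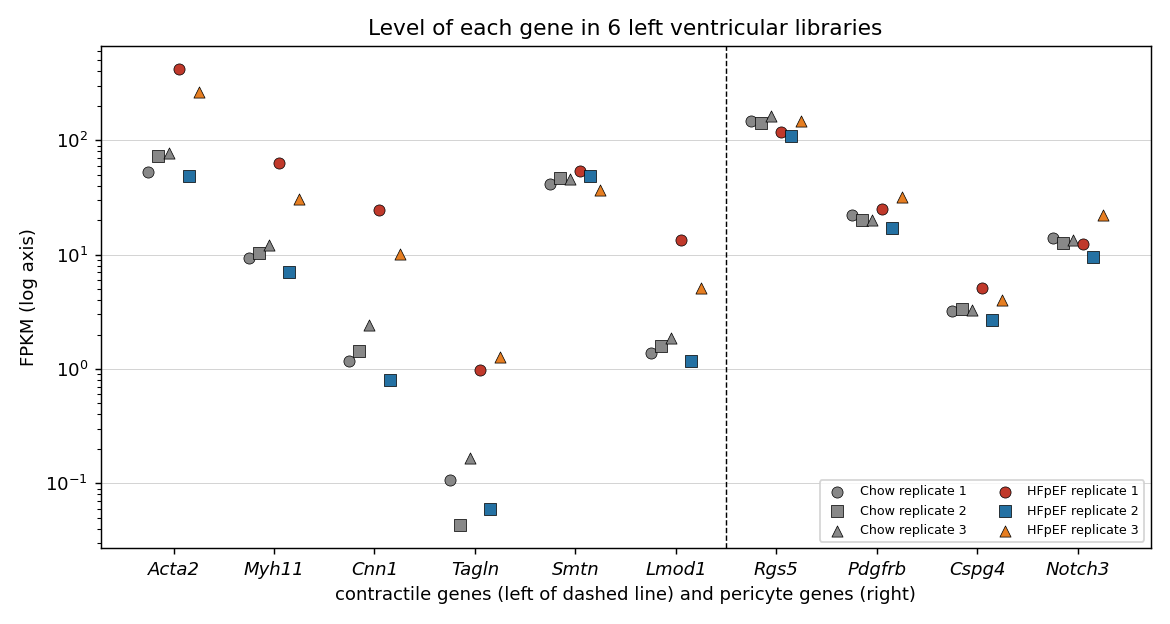
FPKM of the 10 genes (log axis) in each of the 3 Chow and 3 HFpEF libraries, 1 point per library. HFpEF replicates 1 and 3 lay above every Chow library for Acta2, Myh11, Cnn1, Tagln and Lmod1, HFpEF replicate 2 did not, and the pericyte genes stayed within a narrower span.

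None of the 10 genes separated the groups. No gene of the 9 that reached the FPKM minimum for testing had a Benjamini-Hochberg adjusted p under 0.05 by limma, against 0.0984% of the 14225 genes tested (0.0914% higher and 0.00703% lower in HFpEF), and 0 of the 9 had an unadjusted p under 0.05, against 23.3%. The Chow and HFpEF libraries overlapped for all 10 members, whereas they did not overlap for 35.3% of the genes tested (15.6% with HFpEF higher and 19.7% with HFpEF lower). Differentially expressed genes, meeting the same threshold with a log2 fold change of 2 or more in either direction, were 8 in all (0.0562%) and included none of the 10. What the contractile genes had was a split among the 3 HFpEF hearts. For 5 of the 6, HFpEF replicates 1 and 3 both exceeded every Chow library while replicate 2 did not, a configuration held by 5.50% of the genes tested. In the 4 of them that were tested (Acta2, Myh11, Cnn1 and Lmod1) both hearts were at least 2-fold above all the others, as in 0.373% of the genes tested, a limit set after the values were seen. Tagln, which was not tested, met the same limit. Among the pericyte genes, Pdgfrb and Cspg4 held the same configuration but not the 2-fold limit, and Rgs5 and Notch3 held neither.

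Acta2 (ENSMUSG00000035783, chr19:34241090-34255590, minus strand, mm10) had 53.2, 73.1 and 77.9 FPKM in Chow replicates 1 to 3 and 422, 48.8 and 262 in HFpEF replicates 1 to 3. HFpEF replicates 1 and 3 were 6.20 and 3.85 times the Chow mean, and replicate 2, at 0.716 times, was below all 3 Chow hearts. The fitted log2 fold change, HFpEF against Chow on the log2(FPKM + 0.1) scale, was 1.38 (SE 0.76, adjusted p = 0.309 by limma).

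Myh11 (ENSMUSG00000018830, chr16:14194535-14291372, minus strand) encodes the motor protein of smooth muscle and is among its most specific markers. It had 9.36, 10.4 and 12.3 FPKM in Chow and 63.7, 6.99 and 30.4 in HFpEF, from 1013, 929 and 1127 reads against 6702, 900 and 4462. The order of the 3 HFpEF hearts was the one seen for Acta2, with replicate 2 again the lowest of all 6. The log2 fold change was 1.16 (SE 0.74, adjusted p = 0.367 by limma).

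Lmod1 (ENSMUSG00000048096, chr1:135324807-135368065, plus strand) had 1.37, 1.60 and 1.86 FPKM in Chow and 13.6, 1.17 and 5.15 in HFpEF. HFpEF replicates 1 and 3 were 8.42 and 3.20 times the Chow mean and replicate 2 was 0.724 times, with a fitted log2 fold change of 1.40 (SE 0.79, adjusted p = 0.320 by limma). The order of the hearts was that of Acta2 and Myh11, at a much lower level.

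Cnn1 (ENSMUSG00000001349, chr9:22099216-22109630, plus strand), whose product binds actin and restrains myosin, had the widest spread of the tested members. It had 1.18, 1.43 and 2.45 FPKM in Chow and 24.7, 0.798 and 10.1 in HFpEF, resting on 46, 46 and 81 reads against 937, 37 and 532. The highest HFpEF heart held 31.0 times the FPKM of the lowest, and the log2 fold change of 1.83 (SE 1.15, adjusted p = 0.360 by limma) did not pass the test.

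Tagln (ENSMUSG00000032085, chr9:45929619-45936058, minus strand), usually one of the more abundant smooth muscle transcripts, was listed at 0.106, 0.0429 and 0.166 FPKM in Chow and 0.981, 0.0594 and 1.28 in HFpEF. These values rest on 3, 1 and 4 reads in Chow and 27, 2 and 49 in HFpEF, so that HFpEF replicates 1 and 3 again stood above the rest, at a depth where the Chow levels are poorly fixed. Tagln, below the FPKM minimum for testing, was instead put to an exact permutation test (two-sided p = 0.3, where the smallest possible is 0.1). In the GENCODE annotation 67.9% of its exon bases lie in exons of genes on the opposite strand, mostly of the antisense gene Gm48529, which had 0.305, 0.302 and 0.261 FPKM in Chow and 1.05, 0.279 and 0.939 in HFpEF. Whether reads were counted by strand is not given in the sources used here, and the part of this overlap in the low level of Tagln was not tested.

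Smtn (ENSMUSG00000020439, chr11:3517523-3540612, minus strand) did not share the split. It had 41.4, 47.2 and 46.2 FPKM in Chow and 54.4, 48.5 and 36.5 in HFpEF, with the third HFpEF heart, one of the 2 in which the other contractile genes were high, now the lowest of all 6. The log2 fold change was 0.03 (SE 0.17, adjusted p = 0.927 by limma), with a small negative value without Chow replicate 1 (-0.03), HFpEF replicate 1 (-0.093) or HFpEF replicate 2 (-0.0099). In the annotation 16.3% of its exon bases overlap a transcript on the opposite strand, Gm11946, at 0.250 FPKM or less.

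The 4 pericyte genes lay between 0.720 and 1.68 times their Chow means in the 3 HFpEF hearts. Rgs5 (ENSMUSG00000026678, chr1:169655501-169695813, plus strand) had 149, 143 and 165 FPKM in Chow and 118, 109 and 147 in HFpEF, so that HFpEF replicates 1 and 2 lay below every Chow heart and replicate 3 among them. Its log2 fold change was -0.29 (SE 0.15, adjusted p = 0.291 by limma), and 0.012 with quantile normalization. Without HFpEF replicate 3 it was -0.42 with an adjusted p of 0.0382 by limma, the one call among the members under any alternative tried, and in that fit 1169 genes passed the same threshold.

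Pdgfrb (ENSMUSG00000024620), the receptor through which PDGF-B recruits mural cells, had 22.4, 19.9 and 20.0 FPKM in Chow and 24.9, 16.9 and 32.2 in HFpEF (log2 fold change 0.20, SE 0.23, adjusted p = 0.615 by limma). HFpEF replicates 1 and 3 were above the Chow hearts and replicate 2 below them, and without HFpEF replicate 3 the log2 fold change was -0.015. Cspg4 (ENSMUSG00000032911, chr9:56865033-56899870, plus strand), encoding the surface proteoglycan by which pericytes are often stained, likewise had HFpEF replicates 1 and 3 above and replicate 2 below the Chow hearts, with 3.18, 3.33 and 3.31 FPKM in Chow and 5.06, 2.70 and 4.00 in HFpEF (0.21, SE 0.22, adjusted p = 0.592 by limma). Without HFpEF replicate 1 its log2 fold change was 0.0058, and without HFpEF replicate 2 it was 0.45.

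Notch3 (ENSMUSG00000038146, chr17:32120820-32166852, minus strand) is the Notch receptor of mural cells, present in both arterial smooth muscle and pericytes. It had 14.003, 12.6 and 13.3 FPKM in Chow and 12.3, 9.59 and 22.3 in HFpEF, so that only replicate 3 exceeded the Chow hearts. The log2 fold change was 0.05 (SE 0.29, adjusted p = 0.924 by limma), and -0.29 without HFpEF replicate 3. Exons of the antisense gene Gm17276 cover 6.03% of its exon bases.

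**Figure D2:**
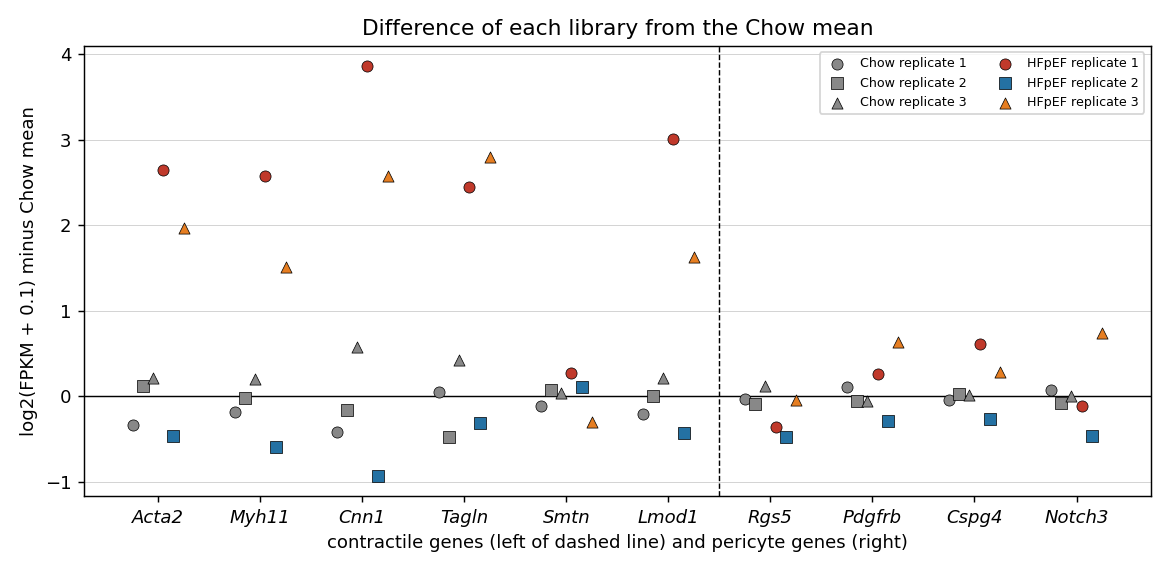
Difference of log2(FPKM + 0.1) from the mean of the 3 Chow libraries, for each gene and library, with 0 as the Chow mean. HFpEF replicate 2 was the lowest of the 3 HFpEF hearts for 9 of the 10 genes, the exception being Smtn.

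HFpEF replicate 2 was the lowest HFpEF heart for 9 of the 10 genes, whereas it was so for 27.4% of the genes tested, and the lowest of all 6 hearts for 8 of the 10, against 10.4%. These shares are descriptions, since genes of the same cells are not independent. The pericyte genes took part in this order, at 0.07, -0.38 and 0.46 for their median log2 difference from the Chow mean in HFpEF replicates 1 to 3, but over a much smaller span than the tested contractile genes, at 2.65, -0.46 and 1.63.

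The span of the 3 HFpEF hearts on the log2 scale was 3.11 for Acta2, 3.17 for Myh11, 3.43 for Lmod1 and 4.79 for Cnn1. Between 97.9% and 99.4% of the genes tested had a smaller span. It was 0.43 for Rgs5, 0.88 for Cspg4, 0.92 for Pdgfrb and 1.21 for Notch3, with 41.7% to 85.8% of genes below, and 0.57 for Smtn. The median over all genes tested was 0.51 in HFpEF and 0.26 in Chow. The HFpEF hearts were thus generally more variable than the Chow hearts, and 4 contractile genes lay near the top of that distribution. Over all genes HFpEF replicate 3 stood furthest apart. Chi-square of reads per degree of freedom was 207 and 208 for its pairs with the other HFpEF hearts. It was 17.7 between HFpEF replicates 1 and 2 and 7.18 to 9.08 between Chow hearts.

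The balance of the contrasted sets was taken within each library, which removes any scaling of a whole library. The mean log2(FPKM + 0.1) of the 6 contractile genes minus that of the 4 pericyte genes was -2.15, -1.94 and -1.66 in Chow and 0.45, -1.98 and -0.62 in HFpEF. HFpEF replicate 2 lay inside the Chow range and the other HFpEF hearts above it. The group means were -1.92 ± 0.245 and -0.72 ± 1.22 (SD, n = 3), a difference of 1.20. Nearly all of it came from the contractile side, which went from 2.37 ± 0.248 to 3.61 ± 1.503, against 4.28 ± 0.0432 and 4.32 ± 0.392 on the pericyte side. Leaving out HFpEF replicate 1 reduced the difference to 0.615, and leaving out HFpEF replicate 2 raised it to 1.83.

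**Figure D3:**
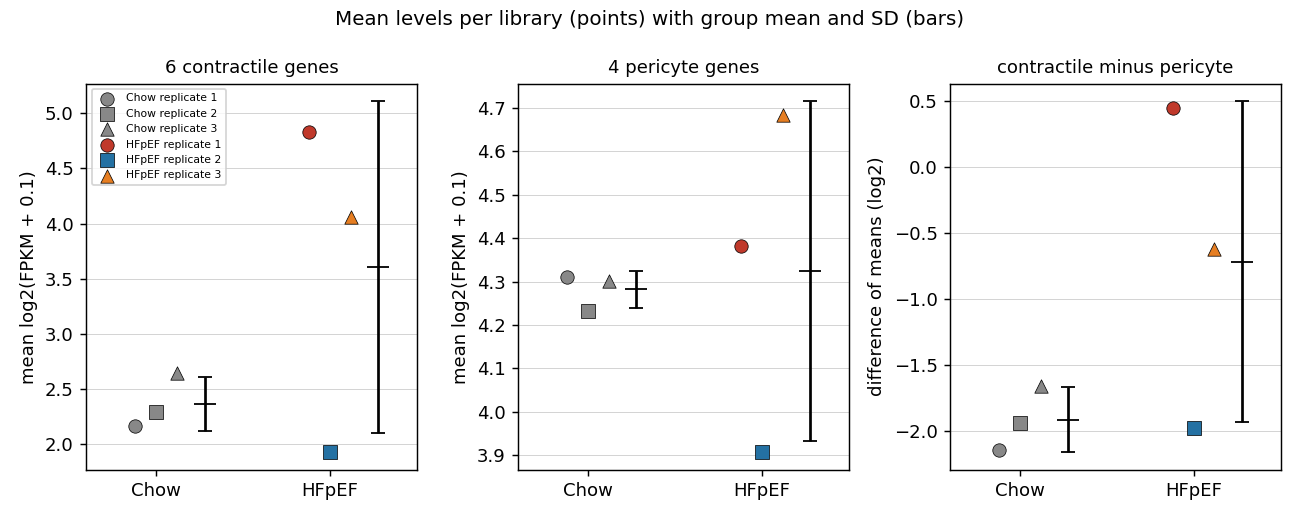
Mean log2(FPKM + 0.1) of the 6 contractile genes, of the 4 pericyte genes and the difference between both, per library, with the group mean and SD (n = 3) as bars; the vertical axes differ between panels. The difference was -0.72 ± 1.22 in HFpEF and -1.92 ± 0.245 in Chow, with HFpEF replicate 2 within the Chow range.

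Single pairs were also read within each library. Acta2 was 0.358, 0.513 and 0.473 times Rgs5 in Chow and 3.57, 0.446 and 1.78 times in HFpEF, so that Acta2 exceeded Rgs5 only in HFpEF replicates 1 and 3. The ratio of Myh11 to Pdgfrb was 0.418, 0.523 and 0.613 in Chow and 2.56, 0.413 and 0.944 in HFpEF. Smtn differed, at 0.278, 0.331 and 0.281 times Rgs5 in Chow and 0.460, 0.444 and 0.248 times in HFpEF, with replicate 3 the lowest of all 6. Of the 24 pairs of a contractile with a pericyte gene, 22 exceeded every Chow library in the first HFpEF heart. Only 4 pairs did so in the second, all of them with Smtn, and 20 did so in HFpEF replicate 3.

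Without HFpEF replicate 2 the log2 fold changes were 2.31 for Acta2, 2.04 for Myh11, 3.22 for Cnn1 and 2.32 for Lmod1, with adjusted p by limma of 0.0548 to 0.0994, so that none passed even then. Without HFpEF replicate 1 they were 0.75, 0.46, 0.82 and 0.60 (adjusted p by limma 0.514 to 0.648). Without HFpEF replicate 3 they ran from 0.99 to 1.47. The direction was the same each time, and its size depended on which HFpEF heart was left out.

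Promoters were compared between genes that met the 2-fold limit (Acta2, Lmod1 and Cnn1) and genes that did not (Smtn, Rgs5, Cspg4 and Notch3). That limit, set after the values were seen, was HFpEF replicates 1 and 3 each at least 2-fold above all other hearts. RefSeq promoter sequence was found for 7 of the 10 genes (build GRCm38.p6). The 250 bases before the RefSeq transcription start are shown for 2 genes of each kind, at chr19:34255374-34255623 (minus strand), chr1:135324563-135324812 (plus), chr11:3539293-3539542 (minus) and chr1:169655251-169655500 (plus). The Smtn window and most of the Acta2 window lie inside the gene spans given above. They thus precede the start of a transcript, not the outermost start of the gene. Capitals mark CArG boxes, the binding element of serum response factor, with at most 1 base off, and MCAT elements (CATTCC or GGAATG), the element of TEAD factors, both searched on both strands.
Acta2: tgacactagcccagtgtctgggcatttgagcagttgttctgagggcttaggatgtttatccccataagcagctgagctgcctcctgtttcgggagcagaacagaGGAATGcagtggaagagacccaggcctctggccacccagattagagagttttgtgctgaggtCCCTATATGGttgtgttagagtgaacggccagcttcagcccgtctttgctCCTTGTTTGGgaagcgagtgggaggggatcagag
Lmod1: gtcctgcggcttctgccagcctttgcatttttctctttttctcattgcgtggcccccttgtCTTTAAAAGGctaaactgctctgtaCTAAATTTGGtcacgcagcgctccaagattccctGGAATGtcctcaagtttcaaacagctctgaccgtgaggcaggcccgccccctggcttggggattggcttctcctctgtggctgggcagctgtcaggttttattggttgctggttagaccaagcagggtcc
Smtn: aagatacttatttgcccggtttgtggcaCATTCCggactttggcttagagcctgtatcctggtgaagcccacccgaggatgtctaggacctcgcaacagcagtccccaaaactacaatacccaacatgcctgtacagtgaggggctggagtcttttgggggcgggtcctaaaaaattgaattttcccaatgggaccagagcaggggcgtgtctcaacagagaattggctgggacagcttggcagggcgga
Rgs5: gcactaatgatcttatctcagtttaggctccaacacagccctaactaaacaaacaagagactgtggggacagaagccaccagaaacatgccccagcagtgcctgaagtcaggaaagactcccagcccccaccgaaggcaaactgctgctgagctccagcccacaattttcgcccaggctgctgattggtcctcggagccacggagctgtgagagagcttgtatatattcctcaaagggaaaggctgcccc
In Acta2 the near matches to the CArG box began 84 and 34 bases before the start, and an MCAT element 146 bases before it. Lmod1 had near matches at 189 and 164 bases and an MCAT element at 130, Smtn an MCAT element at 222, and Rgs5 none. Cnn1, which met the 2-fold limit, had no match. Cspg4, which shared the order of the hearts but not the 2-fold limit, had overlapping near matches 238 and 237 bases before the start. Notch3 had no match. A CArG box with no base off was found in none of the 7 and in 1.47% of 32851 promoters, a near match in 18.6% and an MCAT element in 12.6%. These are letters in a window and do not show binding.

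The wider contractile apparatus was read from a list of 23 further genes, all tested. Their median log2 fold change was 0.53, against -0.012 over all genes tested. No gene of this list had an adjusted p under 0.05 by limma. At an unadjusted p under 0.05, 9 were higher and 2 lower in HFpEF, beside 10.2% and 13.1% of all genes. The 4 most abundant were Tpm1, Des, Flna and Myl9. Myl9, the regulatory light chain of smooth muscle myosin, had 29.3, 40.5 and 39.5 FPKM in Chow and 197, 39.6 and 113 in HFpEF (log2 fold change 1.41, adjusted p = 0.197). Flna, the actin cross-linker filamin A, had 24.9, 26.8 and 27.4 in Chow and 91.4, 27.9 and 89.4 in HFpEF (1.21, adjusted p = 0.186).

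Tropomyosin Tpm1 and the intermediate filament gene Des, both also abundant in cardiomyocytes, lay lower in every HFpEF heart than in any Chow heart, with log2 fold changes of -0.65 (adjusted p = 0.118) and -0.51 (adjusted p = 0.165) by limma. Tpm2 and Actg2 were picked after their values were seen. Tpm2, encoding a tropomyosin of smooth muscle, had 5.96, 7.53 and 9.52 FPKM in Chow and 36.7, 21.5 and 29.2 in HFpEF, with no overlap and a log2 fold change of 1.90 (adjusted p = 0.0596), so that here HFpEF replicate 2 was above the Chow hearts too. The visceral smooth muscle actin Actg2 had 0.271, 0.821 and 0.690 in Chow and 8.44, 1.06 and 13.0 in HFpEF (2.97, adjusted p = 0.147).

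Of 16 further pericyte genes 14 were tested, with a median log2 fold change of -0.24. No gene passed an adjusted p of 0.05 by limma. At an unadjusted p under 0.05, 2 were higher and 5 lower, beside 10.2% and 13.1% of all genes tested. Without overlap between the groups, 6 of the 14 were lower and 2 higher in HFpEF, beside 19.7% and 15.6% of all genes tested. The 2 higher ones, picked after their values were seen, were Anpep (log2 fold change 1.20, adjusted p = 0.119 by limma) and Tbx18 (0.89, adjusted p = 0.147). Abcc9 and Kcnj8 encode the regulatory and pore subunits of the ATP-sensitive potassium channel of pericytes. Both were among the 6 lower in every HFpEF heart than in any Chow heart. Abcc9 had 57.1, 52.2 and 54.1 FPKM in Chow and 33.5, 32.6 and 27.1 in HFpEF (-0.81, adjusted p = 0.0757), and Kcnj8 had 25.6, 23.4 and 26.3 FPKM in Chow and 16.6, 17.1 and 19.4 in HFpEF (-0.50, adjusted p = 0.106). Abcc9 is also expressed by cardiomyocytes.

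Steap4, a metalloreductase gene, overlapped between the groups (0.07, adjusted p = 0.836). Art3 was 20.6 FPKM in HFpEF replicate 3 and 50.0 to 60.4 in the other 5 hearts. In median the 14 genes were -0.25, -0.38 and 0.06 from the Chow mean in HFpEF replicates 1 to 3, and the 23 further contractile genes 1.04, -0.07 and 0.77. HFpEF replicates 1 and 3 were each at least 2-fold above all other hearts for 6 of the 23 further contractile genes. The same held for 0 of the 14 further pericyte genes and for 0.373% of all genes tested. This limit was set after the values of the contractile genes were seen, so the counts are descriptions.

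Regulators of these genes were read next. Of 11 transcription factors, cofactors and kinases upstream of contractile genes, 0 passed an adjusted p of 0.05 by limma, and 0 were higher and 1 lower at an unadjusted p under 0.05, beside 10.2% and 13.1% of all genes. Srf, encoding serum response factor, was at -0.01 on the log2 fold scale (adjusted p = 0.973), the zinc finger factor Klf4 -0.02 (0.960) and the small GTPase Rhoa 0.09 (0.683). Fhl2, a LIM-domain cofactor abundant in cardiomyocytes, was lower in every HFpEF heart (-0.74, adjusted p = 0.109). Myocd, encoding myocardin, was looked up after the values were seen. It had 7.58, 7.55 and 8.42 FPKM in Chow and 7.73, 6.96 and 3.04 in HFpEF. HFpEF replicate 1 thus lay within the Chow range and replicates 2 and 3 below it. A bulk level does not tell which cells held the transcript, and a part of Myocd in the contractile pattern was not tested.

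Among 5 PDGF ligands and receptors other than Pdgfrb, 3 were higher and 0 lower at an unadjusted p under 0.05 (10.2% and 13.1% of all genes), and 0 passed the adjusted threshold by limma. The receptor gene Pdgfra, a fibroblast gene, was 0.68 higher on the log2 scale (adjusted p = 0.0988 by limma), the ligand gene Pdgfa 0.35 (0.165), Pdgfd 0.24 (0.411) and Pdgfb -0.29 (0.378). Of 12 Notch ligands, receptors and targets, 1 was higher and 3 lower at an unadjusted p under 0.05, near the 10.2% of all genes for the higher direction and beside 13.1% for the lower, and 0 passed after adjustment. The ligand genes Jag2 (-0.55, adjusted p = 0.116) and Dll4 (-0.42, adjusted p = 0.119) were lower in every HFpEF heart, and the target genes Hes1 (-0.05, adjusted p = 0.891) and Heyl (0.11, adjusted p = 0.796) overlapped.

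Family members of the 10 genes were also read. Of 16, 15 were tested, 0 passed an adjusted p of 0.05 by limma, and 3 were higher and 2 lower at an unadjusted p under 0.05, beside 10.2% and 13.1% of all genes. The median over the list was 0.47 on the log2 fold scale. The cytoplasmic actins Actb and Actg1 had log2 fold changes of 0.51 (adjusted p = 0.287) and 0.62 (0.225), the cardiac actin Actc1 -0.65 (0.197) and the cardiac leiomodin Lmod2 -0.55 (0.222). Reads shared between actin genes cannot be placed from gene-level values, so the level of Acta2 is uncertain to that extent.

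By likeness over the 6 libraries, measured as the root mean square difference of log2 distances from the Chow mean, Lmod1 (0.213) and Myh11 (0.215) were the closest of all tested genes to Acta2, and the only ones within 0.25, a limit set after the values were seen. Outside the members Myl9 (0.290), Frzb (0.433), Flna (0.442), Actn1 (0.461) and Gng8 (0.471) were closest. Cnn1 was at 0.615 and Smtn at 1.36. The 5 genes closest to Rgs5 were Psma5, Rps2-ps13, Nop16, Otulin and Znrf1, at 0.0539 to 0.0577, but 2484 genes lay within 0.25 of Rgs5, so this likeness sets nothing apart.

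Other cell types were read from marker lists, since several moved with the same hearts. The 5 tested valve and cartilage genes had median differences from the Chow mean of 2.78, 1.02 and 2.59 in HFpEF replicates 1 to 3, close to the order of the contractile genes, and a summed FPKM over the list of 103, 32.7 and 63.1 against 13.7 to 19.5 in Chow. Tnmd was at 0 in every Chow library. Large artery wall genes stood at 1.48, 1.22 and 3.41, with a summed FPKM of 260, 213 and 507 against 148 to 153, and all 6 were higher in every HFpEF heart than in any Chow heart, as were 15.6% of all genes tested. Eln, encoding elastin, had 26.8, 33.9 and 92.5 FPKM in HFpEF and at most 7.59 in Chow (log2 fold change 2.73, adjusted p = 0.0840 by limma).

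Fibroblast genes stood at 0.69, 0.67 and 2.01 and activated fibroblast genes at 1.41, 0.92 and 4.33, highest in the third HFpEF heart rather than the first. Atrial genes, at 6.91, 7.87 and 0.35, were high in both HFpEF replicates 1 and 2. The contractile genes were highest in replicate 1 of these hearts, at 2.65, and lowest in replicate 2, at -0.46. Endothelial genes were at -0.15, -0.37 and -0.14 and ventricular cardiomyocyte genes at -0.39, -0.34 and -1.02. The part of valve, artery wall, fibroblast or atrial tissue in the level of the contractile genes was not tested.

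In the remaining lists the median log2 fold change was 5.61 over 4 tested adipocyte genes. Of these, Adipoq, Cidec and Cfd passed an adjusted p of 0.05 by limma, as did 0.0984% of all genes tested. All 4 reached the FPKM minimum through the HFpEF libraries alone. Their fold changes therefore depend on the pseudocount, and the calls are given as description only. The median was 1.06 over 5 mesothelial, 0.75 over 6 macrophage, 0.59 over 5 Schwann cell and neuron and -0.10 over 3 skeletal muscle genes. In these lists 0 genes passed an adjusted p of 0.05 by limma. At an unadjusted p under 0.05, 2 mesothelial, 3 macrophage, 3 Schwann cell and neuron and 0 skeletal muscle genes were higher, beside 10.2% of all genes tested. Myh4 was at 0 in every library.

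**Figure D4:**
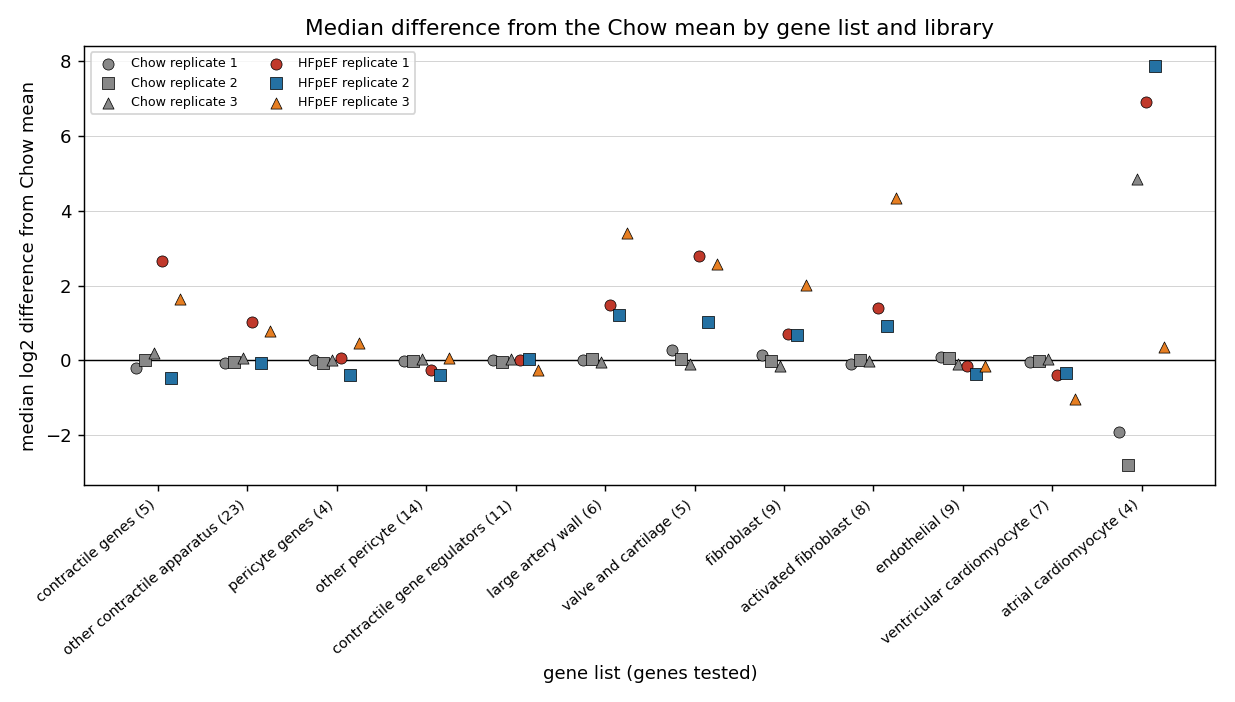
Median log2 difference from the Chow mean over the tested genes of 12 lists, 1 point per library. The contractile genes were at 2.65, -0.46 and 1.63 in HFpEF replicates 1 to 3 and the pericyte genes at 0.07, -0.38 and 0.46, while atrial genes followed another order.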

How the data were processed

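RNA of 3 Chow and 3 HFpEF mice, grouped by the sample titles, was analysed. The titles name the tissue as heart, and the authors' methods name it as left ventricular myocardium. Whether the libraries with high atrial genes held atrial tissue was not tested. The authors used HISAT2 for alignment and featureCounts for gene counts, and deposited FPKM. The processing notes name GRCm38 and mm10, and the formula is not given in the sources used here. Symbols, exons and lengths came from GENCODE M21, which holds 54409 of the 54532 identifiers. With its lengths 96.0% to 96.2% of values above 0 were whole reads (relative tolerance 1e-06). Acta2 and Notch3 were not, so no reads are given for them. Read numbers cover counting error only.

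FPKM was scaled by the median of ratios (factors 0.999 to 1.00), and log2(FPKM + 0.1) was fitted with limma 3.58.1 (R 4.3.3, lmFit, eBayes with trend and robust options) for genes with at least 0.5 FPKM in 3 libraries or more, with adjustment over all 14225 genes. Fold changes of low genes are understated by the pseudocount. P-values measure the spread between 3 mice per group. In simulated data of 14105 genes, 199 of 200 genes changed by a log2 fold change of 3 were called, with 6 unchanged ones. The simulation used the same spread setting for all genes and both groups. In the real libraries the median log2 span over all genes tested was 0.51 in HFpEF and 0.26 in Chow. The simulation therefore does not show how many changes of this size would be called here.

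The members and lists were chosen with earlier results of these data known. Named genes are the members, genes of each list past the adjusted threshold or else up to 4 of its most abundant, and the 5 most alike to Acta2 and to Rgs5. Python 3.11.15 with pandas 2.3.3 was used for the rest. The authors' own comparisons were not used.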

Additional observations from a re-analysis of the deposited data

How the results depend on the processing

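Differentially expressed genes numbered 8. They numbered 2 with a pseudocount of 1, 3 with a pseudocount of 0.01, 5 with a minimum of 1 FPKM, 19 without the trend and robust options of eBayes, 14 with a log2 fold change of 1 or more in either direction, and 0 with voom on recovered reads, where 3358 genes had an unadjusted p under 0.05. Leaving out each library gave 2 to 59, with 59 without HFpEF replicate 3, 24 without HFpEF replicate 2 and 2 or 3 otherwise. Genes with an adjusted p under 0.05 numbered 14, and 3, 5, 32 and 0 with a pseudocount of 1, a pseudocount of 0.01, plain eBayes and voom. Leaving out each library gave 2 to 1169, with 1169 without HFpEF replicate 3 and 53 without HFpEF replicate 2. The sample labels do not say whether replicate numbers pair the mice. Correlations of same-numbered deviations were -0.041, -0.073 and -0.057. Deviations from a mean of 3 libraries sum to 0 within each group, so these values cannot decide it. With the replicate number as a block 2 genes were differentially expressed and 2 had an adjusted p under 0.05 by limma.

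No member had an adjusted p under 0.05, and the alternatives gave 0 to 1 members, the 1 being Rgs5 without HFpEF replicate 3. The members with an unadjusted p under 0.05 were 0, or 0 to 6 with 1 library left out. The 6 were without HFpEF replicate 2, where 3483 of the 14225 genes tested also had an unadjusted p under 0.05. That library was the HFpEF heart in which the contractile genes were low, so the 6 are no added evidence. Acta2, Myh11, Cnn1, Lmod1 and Cspg4 kept their direction under all 15 alternatives. Rgs5 reversed with quantile normalization (0.012), Smtn without Chow replicate 1 (-0.03), HFpEF replicate 1 (-0.093) or HFpEF replicate 2 (-0.0099), and Pdgfrb (-0.015) and Notch3 (-0.29) without HFpEF replicate 3. With single libraries left out Smtn ran from -0.093 to 0.20, Pdgfrb from -0.015 to 0.45, Cspg4 from 0.0058 to 0.45 and Notch3 from -0.29 to 0.32. The difference between contractile and pericyte genes of 1.20 ran from 0.615 to 1.83 when libraries were left out, and was 1.44 without Smtn and 1.12 without Tagln, both chosen after the data were seen. The limits are 3 mice per group, read numbers of 1 to 4 for Tagln in Chow, and a bulk measurement that does not tell cell types apart.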

Other observations

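The pattern of the contractile genes, with HFpEF replicates 1 and 3 each at least 2-fold above every other heart, was looked for across all genes after the values were seen. It was held by 53 of the 14225 genes tested (0.373%), 46 of them protein-coding. They were the members Acta2, Myh11, Cnn1 and Lmod1, 12 genes of the other lists and 37 genes in no list.

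The genes given here are examples chosen after their values were seen. Ccn3, a matricellular protein gene, had 1.59, 1.07 and 1.67 FPKM in Chow and 40.4, 1.69 and 30.3 in HFpEF replicates 1 to 3. Thbs1, encoding the matricellular protein thrombospondin-1, had 0.960, 1.53 and 1.51 in Chow and 17.1, 1.74 and 44.7 in HFpEF (log2 fold change 3.00, adjusted p = 0.179 by limma). In both genes HFpEF replicate 2 was near the Chow level but just above the highest Chow heart. The groups thus did not overlap, as for 15.6% of all genes tested with HFpEF higher.

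Sost, encoding the Wnt antagonist sclerostin, had 0.476, 0.536 and 0.480 FPKM in Chow and 21.5, 0.429 and 6.62 in HFpEF. Chad, a cartilage matrix gene, had 0.669, 0.507 and 0.345 in Chow and 13.0, 0.281 and 6.84 in HFpEF. Npnt, encoding the integrin ligand nephronectin, had 0.210, 0.560 and 0.691 in Chow and 10.6, 0.376 and 3.42 in HFpEF, and its receptor gene Itga8 had 0.810, 0.925 and 1.46 against 17.8, 0.977 and 6.99. None of these 6 genes had an adjusted p under 0.05 by limma.

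Csrp2, a LIM-domain gene of smooth muscle, had 5.50, 4.63 and 8.72 FPKM in Chow and 35.4, 12.7 and 43.0 in HFpEF. Bgn, encoding biglycan, had 33.4 to 37.5 in Chow and 114, 52.6 and 183 in HFpEF, and Vim, encoding vimentin, had 54.1 to 61.3 in Chow and 170, 81.7 and 303 in HFpEF. For these 3 genes HFpEF replicate 2 also lay above the Chow hearts, with no overlap between the groups, as for 35.3% of all genes tested.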
